A study of Mus musculus with 38 samples.

Results

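Arc, the activity-regulated cytoskeleton-associated protein gene, was followed across all ribosome-footprint libraries of the study, as 1 gene of 22443 with a matched symbol. Its counts were those of its longest annotated transcript in the coding sequence (CDS), the 5′ UTR and the 3′ UTR, and levels are given as counts per 1000000 CDS counts of the same library (CPM). In PL-Ribo-seq, a biotin ligase marks proteins close to it in living neurons, and the ribosome-protected mRNA fragments of the labelled complexes are then sequenced. The input is a portion of the ribosome fraction taken before the streptavidin pulldown of the same lysate.

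All groups were primary cortical neurons of CD-1 mouse embryos, transduced with a lentivirus carrying a doxycycline-inducible ligase. TurboID-PSD95 is directed to dendrites by PSD95 elements, and Pan-TurboID has no localization signal. Resting neurons and neurons depolarized with 55 mM KCl for 1 h were compared with both ligases, each as input and pulldown with 3 replicates per group. In the other experiments the ligase was TurboID-PSD95. One used DHPG at 100 µM for 10 min, which activates group I metabotropic glutamate receptors, with 3 inputs and 3 pulldowns. In the other, neurons received an siRNA against eIF4G2, a translation initiation factor related to eIF4G, for 72 h and were left resting or depolarized with KCl, with 2 replicates in each of 4 groups. All 38 libraries in 14 groups had received biotin and cycloheximide. Resting controls for DHPG and controls without knockdown come from the KCl experiment, so experiment and treatment cannot be told apart in those comparisons. Libraries with a non-targeting siRNA were not analysed here. For inputs with DHPG and for libraries with knockdown, some label descriptions read cytosol whereas the virus field names PSD95-TurboID, which was followed here.

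Arc is an immediate early gene: neuronal activity induces its transcription within minutes through SRF, MEF2 and CREB sites. The mRNA is carried into dendrites, is translated near active synapses and is short-lived, since introns in its 3′ UTR leave exon junction complexes that trigger nonsense-mediated decay after translation. The protein binds endophilin and dynamin, promotes the endocytosis of AMPA receptors and assembles into capsid-like particles. Translation of Arc on existing mRNA is also a classical response to group I metabotropic receptors.

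On mm10 the longest Arc transcript lies on the minus strand of chromosome 15, from 74669083 to 74672568, and has a 5′ UTR of 196 nt, a CDS of 1191 nt and a 3′ UTR of 1668 nt. The CDS lies in 1 exon. The 3′ UTR is made of 3 exon segments, and its splice junctions lie 617 and 757 nt after the stop codon. These are the sequences around the ends of the coding sequence, from the GENCODE M21 transcript on that assembly, shown because the 3 counted regions meet there. Capitals mark the start and the stop codon.
Arc start codon, chr15:74672358-74672387, minus strand: agcaccgacgaccagATGgagctggaccat
Arc stop codon, chr15:74671170-74671199, minus strand: aggacccagcctgaaTAGaggggccagccc
A footprint was counted where its 5′ end lies, with no offset, so a ribosome on the first codons falls within the last bases of the 5′ UTR. The 5′ UTR of Arc holds no ATG on the transcript strand, whereas 55.2% of 20737 annotated 5′ UTRs hold at least 1, as do 60.3% of the 4466 5′ UTRs within 50 nt of its length. Its GC content is 66.3%, against a median of 59.6%.

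The libraries held 2047166 to 14635947 CDS counts, with 18 to 1496 in the Arc CDS, and intervals from counts cover counting error only. Arc had the fewest counts in the resting pulldowns (18 to 83). Eif4g2 was at 284 and 284 CPM in the resting and at 338 and 324 CPM in the depolarized knockdown inputs, below the 539 to 773 CPM of TurboID-PSD95 inputs of the KCl experiment and the 445 to 457 CPM of DHPG inputs. Dlg4, which encodes PSD95 and shares sequence with the ligase construct, was at 338 to 5224 CPM in TurboID-PSD95 pulldowns of the KCl experiment and at 15.7 to 50.2 CPM in Pan-TurboID pulldowns. Marker genes of neurons summed to 4724 to 9810 CPM in every library, with all 8 detected. Astrocyte markers summed to 310 to 984 CPM in the KCl experiment and to 90.7 to 99.4 CPM in the DHPG experiment, where 1 of the 7, S100b, was at 0 in every library. Microglia markers stayed at or below 5.74 CPM in the KCl experiment and reached 6.40 to 24.9 CPM with knockdown. Replicates are biological replicates according to the methods. Every pair within a group differed by more than counting noise, with a chi-square per gene of 8.61 to 47.5 in the KCl experiment. It was 2.81 to 4.65 with knockdown, 1.48 to 1.89 in DHPG inputs and 2.83 to 8.88 in DHPG pulldowns. The DHPG inputs thus differed by little more than counting noise, and the SEs there rest on this small spread.

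The Arc CDS was low in resting neurons and rose 10.2-fold to 18.3-fold with KCl in inputs and pulldowns of both ligases. With TurboID-PSD95, the resting inputs held 13.8, 11.5 and 17.2 CPM and the depolarized inputs 110, 177 and 142 CPM. With Pan-TurboID, the resting inputs held 9.36, 5.72 and 14.8 CPM and the depolarized inputs 103, 132 and 109 CPM. The lowest depolarized input thus stood well above the highest resting input for both ligases. In TurboID-PSD95 pulldowns the values were 6.57, 11.1 and 8.79 CPM at rest and 74.4, 135 and 104 CPM after KCl. In Pan-TurboID pulldowns they were 6.78, 5.48 and 5.67 CPM at rest and 88.6, 111 and 118 CPM after KCl, again without overlap between the conditions. With TurboID-PSD95 the summed neuron markers fell with KCl without overlap. They went from 7476 to 8239 CPM to 5737 to 7304 CPM in inputs and from 6654 to 7263 CPM to 5391 to 5765 CPM in pulldowns. With Pan-TurboID their ranges overlapped between the conditions. Of the single neuron markers in TurboID-PSD95 pulldowns, only Tubb3 passed (log2 change -1.10, edgeR FDR 0.0387). The others lay between -0.41 (Slc17a7) and 0.12 (Map2) there. None passed in TurboID-PSD95 inputs, with values from -0.87 (Rbfox3) to 0.18 (Nefl). The part of the shift in the summed markers in the Arc response was not tested.

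**Figure D1:**
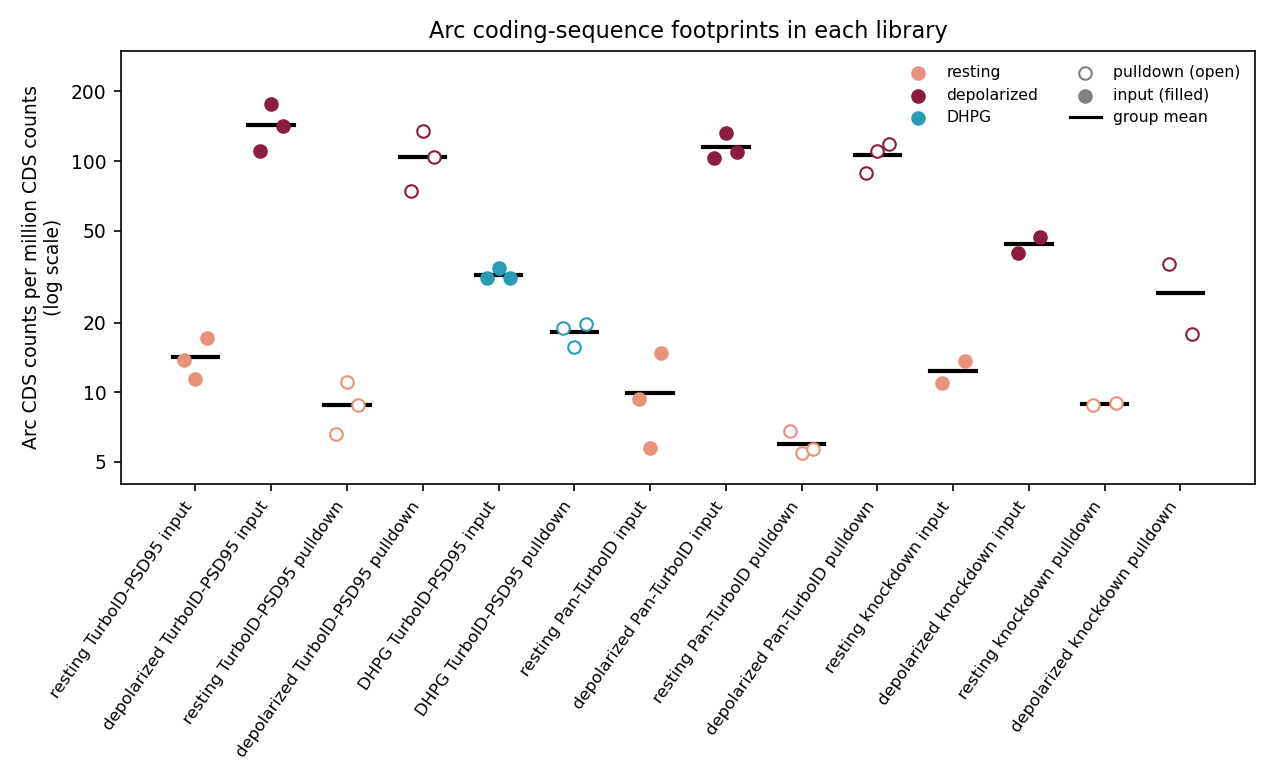
Arc CDS level in CPM, on a log scale, in each of 38 libraries (points) of 14 groups, with the mean of each group as a line. The 4 depolarized groups without knockdown lie at 74.4 CPM and above, and the means of the DHPG and the depolarized knockdown groups lie between those and the means of the resting groups.

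On the log2 scale the KCl response was 3.36 (SE 0.284, edgeR FDR 2.27e-08) in TurboID-PSD95 inputs and 3.59 (SE 0.292, edgeR FDR 8.93e-09) in Pan-TurboID inputs. It was 3.59 (SE 0.298, edgeR FDR 1.00e-08) in TurboID-PSD95 pulldowns and 4.20 (SE 0.299, edgeR FDR 8.25e-10) in Pan-TurboID pulldowns. As fold changes these are 10.2, 12.1, 12.1 and 18.3. Genes called higher made up 1.29% of 13003 genes in TurboID-PSD95 inputs, 1.23% in Pan-TurboID inputs, 3.3% in TurboID-PSD95 pulldowns and 1.88% in Pan-TurboID pulldowns. By fold change Arc had rank 15, 13, 33 and 6 in those comparisons. Per kilobase of CDS, Arc moved from between rank 7276 and rank 10243 of all genes in resting libraries to between rank 1381 and rank 2250 after KCl.

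The response was not distinguishable between the ligases or between pulldown and input. The difference of the log2 response, TurboID-PSD95 minus Pan-TurboID, was -0.24 (95% interval -1.02 to 0.54, edgeR FDR 1.00) in inputs and -0.60 (95% interval -1.41 to 0.21, edgeR FDR 1.00) in pulldowns. The response in pulldowns minus that in inputs was 0.24 (95% interval -0.55 to 1.03, edgeR FDR 1.00) for TurboID-PSD95 and 0.60 (95% interval -0.19 to 1.40, edgeR FDR 1.00) for Pan-TurboID. These intervals leave room for differences of up to 1.41 on the log2 scale. In each of these comparisons 0 of 13003 genes were called in either direction.

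The 2 lists of early genes hold those that activity is known to induce alongside Arc, 20 early transcription factors and 16 early effectors, all of which could be tested. In TurboID-PSD95 inputs 15 of the 20 factors and 4 of the 16 effectors rose with KCl, and none fell, with a median log2 fold change over both lists of 1.44 against -0.02 over all genes. In the pulldowns 17 factors and 6 effectors rose. Of all genes 1.29% were called higher and 2.97% lower in these inputs, and 3.3% higher in the pulldowns. Egr2, Egr1, Junb, Fosb and Klf4, all transcription factors, had larger responses than Arc in the inputs, with Egr2 at 4.45 and Egr1 at 3.57. No effector reached the response of Arc. Among the factors, Nr4a1 rose by 3.31, Atf3 by 3.15, Fos by 2.96, Egr4 by 2.89, Ier2 by 2.57, Jun by 2.33, Egr3 by 2.31, Npas4 by 2.21, Btg2 by 2.00 and Maff by 1.65 in those inputs. Of the effectors, Gadd45b rose by 2.68, Dusp1, a phosphatase of MAP kinases, by 1.97, Sik1 by 1.62 and Plk2, a kinase that acts on synaptic proteins, by 1.26. The SEs of the early genes that passed were 0.195 to 0.780 in inputs. In pulldowns Klf10 (1.80), Homer1 (1.64), Dusp6 (1.12) and Nr4a2 (1.01) passed as well. Homer1, whose short form competes with its scaffold form, was at -0.42 (edgeR FDR 0.69) in inputs, and Bdnf was at 0.00 (edgeR FDR 1.00).

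Few of the genes that act on Arc or with it passed the test with KCl in TurboID-PSD95 libraries. None of 17 genes of the induction pathway (such as Srf, Creb1 and Mef2c) passed in inputs, where genes called lower made up 2.97% of all. In pulldowns 1 of the 17 fell, the calcium-dependent kinase Camk4 (-1.01), where genes called lower made up 3.28%. Of 14 genes whose products bind Arc mRNA or take part in its decay, none passed in TurboID-PSD95 inputs, whereas Eif4a3 rose by 0.61 (edgeR FDR 0.0243) in Pan-TurboID inputs. In TurboID-PSD95 pulldowns 2 of the 14 rose, Eif4a3 (0.56) and Magoh (1.02), where 3.3% of all genes were called higher. Both belong to the exon junction complex, whose other listed members Casc3 (-0.24, edgeR FDR 0.662) and Rbm8a (0.50, edgeR FDR 0.400) did not pass. None of 12 protein partners, 4 turnover genes (including the ubiquitin ligases Ube3a and Rnf216) and 3 AMPA receptor subunits passed in either. Eef2, an elongation factor whose phosphorylation is part of the metabotropic response, fell by 1.22 in inputs and by 1.58 in pulldowns.

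The levels of Arc over all 14 groups ran from 5.98 ± 0.705 CPM (SD, n = 3) in resting Pan-TurboID pulldowns to 143 ± 33.4 CPM (SD, n = 3) in depolarized TurboID-PSD95 inputs. From the lowest upward came resting Pan-TurboID pulldown, resting TurboID-PSD95 pulldown, resting knockdown pulldown, resting Pan-TurboID input, resting knockdown input and resting TurboID-PSD95 input. Then came DHPG pulldown, depolarized knockdown pulldown, DHPG input, depolarized knockdown input, depolarized TurboID-PSD95 pulldown, depolarized Pan-TurboID pulldown, depolarized Pan-TurboID input and depolarized TurboID-PSD95 input. The ranges of neighbouring groups overlapped except at 2 steps. Depolarized knockdown inputs (40.2 to 47.1 CPM) did not overlap with the DHPG inputs below them (31.1 to 34.3 CPM) or with the depolarized TurboID-PSD95 pulldowns above them (74.4 to 135 CPM).

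Arc has been described as translated in dendrites, and the ratio of pulldown to input asks whether its footprints gathered near the TurboID-PSD95 ligase. No enrichment was measured: the Arc CDS was lower in the pulldown than in the input with the same replicate number in 18 of 19 pairs. The log2 ratio averaged -0.57 ± 0.448 (SD, n = 19 pairs) and ranged from -1.40 to 0.11. Deviations from the group means correlated at 0.359 to 0.708 within the 12 pairs of the KCl experiment, but at -0.21 to 0.054 within the 3 DHPG pairs and at 0.0099 to 0.024 within the 4 knockdown pairs, so the numbers may not pair the libraries of those experiments. In these, every input stood above every pulldown of the same condition, and the sign did not depend on the pairing. For TurboID-PSD95 it was -1.07, -0.05 and -0.96 at rest and -0.56, -0.39 and -0.45 after KCl. For Pan-TurboID it was -0.46, -0.06 and -1.39 at rest and -0.22, -0.25 and 0.11 after KCl, so the 2 ligases overlapped. In the 12 cultures of the KCl experiment the mean ratio was -0.48 (11 of 12 below 0, two-sided exact sign-flip permutation p = 0.00195 over 12 cultures, where the smallest p is 4.88e-04). Cultures share replicate numbers across groups, so these 12 may not be fully independent, and this test was chosen after the data were seen.

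In the fit across all genes, the log2 ratio was -0.64 (SE 0.293, edgeR FDR 0.104) for resting and -0.41 (SE 0.255, edgeR FDR 0.278) for depolarized TurboID-PSD95 libraries. For Pan-TurboID it was -0.67 (SE 0.293, edgeR FDR 0.129) at rest and -0.07 (SE 0.254, edgeR FDR 0.886) after KCl. Without 1 replicate the resting value ran from -0.97 (without replicate 2) to -0.42 (without replicate 1) for TurboID-PSD95 and from -0.86 (without replicate 2) to -0.27 (without replicate 3) for Pan-TurboID, with no edgeR FDR under 0.0643. With the culture as a block, the resting ratios were -0.65 (edgeR FDR 0.0279) and -0.68 (edgeR FDR 0.0314). Over both ligases at rest, 21.9% of genes were called lower, in a comparison chosen after the data were seen. Arc fell there by 0.66 (SE 0.207, edgeR FDR 0.0133). Without replicate 1 that value was -0.60 (edgeR FDR 0.0640), and without replicate 3 it was -0.38 (edgeR FDR 0.339). The enrichment of Arc with TurboID-PSD95 minus that with Pan-TurboID, over both conditions, was -0.16 (95% interval -0.72 to 0.41, edgeR FDR 1.00). An enrichment by TurboID-PSD95 over Pan-TurboID of more than 0.41 on the log2 scale lies outside that interval. That comparison called 1 of 13003 genes higher and 0 lower, so it told the ligases apart for almost no gene.

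**Figure D2:**
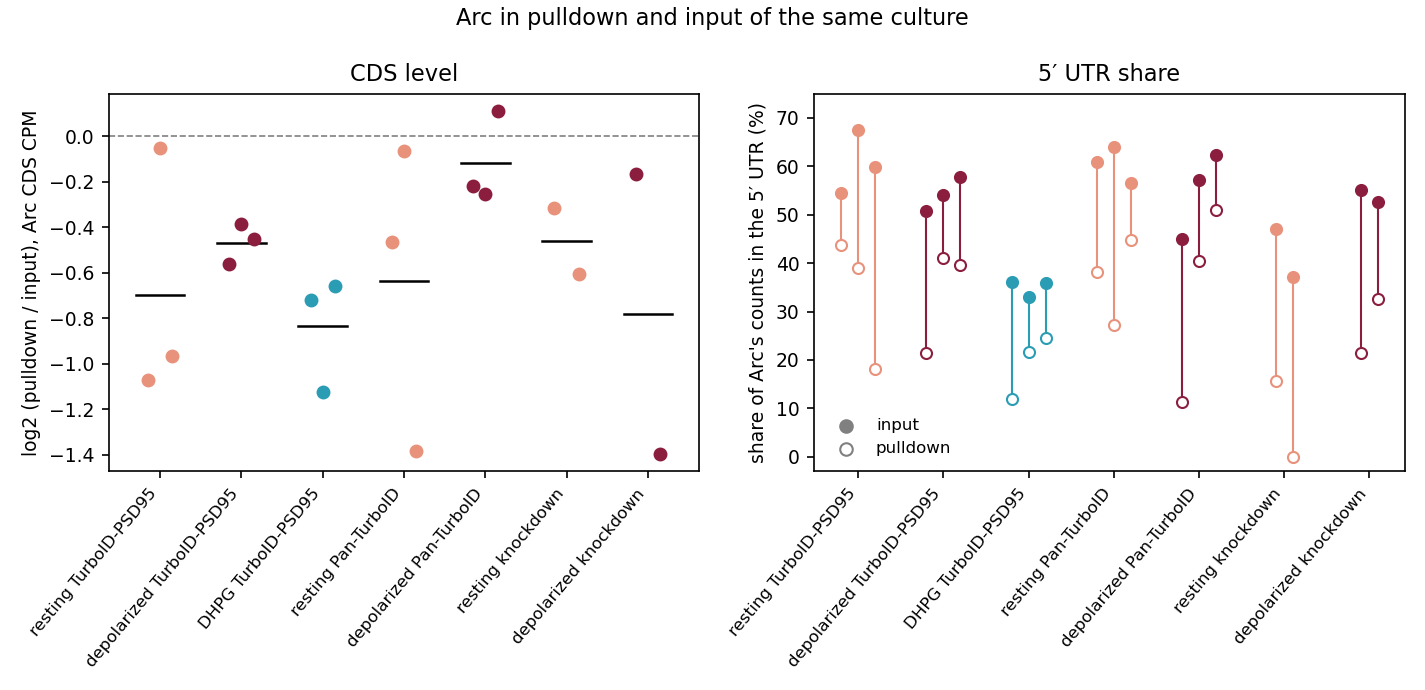
Arc in the pulldown and the input with the same replicate number. Left, log2 ratio of the CDS level, 1 point per pair with the mean of each condition as a line; right, share of the Arc counts that lie in the 5′ UTR (%), input filled and pulldown open, joined per pair. The ratio is below 0 in 18 of 19 pairs and the share falls in 19 of 19.

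Genes that work with Arc moved in both directions between pulldown and input in resting TurboID-PSD95 cultures, where 11.5% of genes were called higher in the pulldown and 13.5% lower. All 3 AMPA receptor subunits tested, the cargo of Arc-dependent endocytosis, were higher: Gria1 by 1.02, Gria2 by 1.24 and Gria3 by 1.38. Of 12 protein partners 7 were higher, such as the dynamin Dnm2 (0.96), the adaptor subunit Ap2m1 (1.45), Pick1 (0.66) and Camk2b (0.58), and 2 were lower, the endophilins Sh3gl1 (-0.90) and Sh3gl3 (-1.02). The partners include Dlg4, whose counts hold the ligase construct. Of the 14 mRNA-binding and decay genes 1 was higher and 8 were lower, among them Fmr1 (-0.66), Pura (-0.83), Magoh (-0.71) and Casc3 (-0.87). Of 36 early genes none was higher and 7 were lower, including Fos (-1.11), Egr1 (-1.11), Egr2 (-1.16) and Egr3 (-0.96). The SEs of these 7 were 0.241 to 0.424. The median ratio of the 36 was -0.54, against -0.05 over all genes and -0.64 for Arc.

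DHPG libraries held more Arc than resting TurboID-PSD95 libraries of the KCl experiment and less than depolarized ones. The inputs held 31.3, 34.3 and 31.1 CPM and the pulldowns 19.0, 15.7 and 19.7 CPM. All DHPG inputs thus stood above all resting inputs, all DHPG pulldowns above the resting TurboID-PSD95 pulldowns, and the DHPG inputs above their pulldowns. Over resting inputs the log2 fold change was 1.30 (SE 0.210, edgeR FDR 2.07e-04), and over resting pulldowns 1.30 (SE 0.229, edgeR FDR 2.27e-04). These experiments differed broadly: 16.3% of genes were called higher and 16.5% lower in inputs, and 21.7% higher and 25.9% lower in pulldowns. Astrocyte markers were lower in DHPG libraries as given above. The 7 oligodendrocyte markers summed to 9.75 to 25.6 CPM in DHPG libraries, with Mog at 0, against 54.2 to 296 CPM in resting TurboID-PSD95 libraries. The 5 endothelial markers summed to 8.33 to 10.9 CPM against 12.7 to 76.8 CPM. The summed neuron markers were higher, at 8825 to 8904 CPM in DHPG against 7476 to 8239 CPM in resting inputs. In pulldowns they summed to 8054 to 8199 CPM against 6654 to 7263 CPM. Single neuron markers went both ways. Camk2a (1.87 in inputs and 1.89 in pulldowns) and Tubb3 (1.03 and 1.23) were higher, whereas Slc17a7 (-0.75 and -0.67) was lower. Map2 (-0.94), Snap25 (-0.71) and Syt1 (-0.52) were lower in pulldowns. Rbfox3 was higher in inputs (0.51) and lower in pulldowns (-0.41). The part of these shifts in the Arc values was not tested. In such bulk libraries fewer cells of a type and less RNA per cell cannot be told apart.

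Most early genes moved the other way from Arc between these groups. Of 36, 3 were higher in DHPG inputs (Egr3 by 2.20, Klf10 by 1.70 and Plk2 by 0.52) and 22 were lower, among them Nr4a1 (-3.74), Fos (-2.98), Npas4 (-2.81), Bdnf (-1.72), Dusp1 (-1.63) and Egr1 (-1.11). The SEs of those that passed in inputs were 0.125 to 0.667. In pulldowns 5 were higher and 22 lower. The median of the 36 was -0.97 in inputs and -1.56 in pulldowns, against -0.02 and -0.09 over all genes. Egr3 and Klf10 exceeded Arc in inputs, and Egr3 did so in pulldowns. The resting libraries came from the KCl experiment, so these values do not give the response to DHPG itself. The paper measured Arc, Fos and Jun by qPCR relative to resting neurons. It reports that immediate early gene expression was similar with KCl and DHPG. Among genes of metabotropic translation control, Grm5, a metabotropic glutamate receptor, was higher by 0.92 in inputs and Eef2k, the kinase of EEF2, by 1.50.

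Within the DHPG experiment the Arc pulldown was lower than the same-numbered input in 3 of 3 pairs, with log2 ratios of -0.72, -1.12 and -0.66. The fit gave -0.62 (SE 0.117, edgeR FDR 9.87e-05). In that comparison 39.3% of 12257 genes were called lower and 40.5% higher, so such a call is common here. Of 34 early genes tested 6 were higher and 20 lower, with a median of -0.77.

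With eIF4G2 knockdown Arc still rose with KCl, but to lower levels. The knockdown inputs held 11.0 and 13.6 CPM at rest and 40.2 and 47.1 CPM after KCl. The knockdown pulldowns held 8.83 and 8.97 CPM at rest and 35.9 and 17.9 CPM after KCl. Resting knockdown pulldowns lay within the range of the resting TurboID-PSD95 pulldowns (6.57 to 11.1 CPM), and 1 of the resting knockdown inputs lay below and 1 within that of the resting TurboID-PSD95 inputs (11.5 to 17.2 CPM), whereas the depolarized ones lay below every depolarized library without knockdown. The KCl response was 1.83 (SE 0.300, edgeR FDR 6.51e-05) in inputs and 1.62 (SE 0.347, edgeR FDR 0.00116) in pulldowns, where 8.91% and 10.2% of genes were called higher. As fold changes these are 3.55 and 3.07. Without replicate 1 of the depolarized knockdown pulldown the pulldown response was 0.99 (edgeR FDR 0.0849). Leaving out 1 of 2 knockdown libraries, here and in the values that follow, leaves 1 library, which the fit assumes to vary like the other groups. Markers of other cell types moved with KCl in these libraries as well. The 7 astrocyte markers summed to 535 to 559 CPM at rest and 717 to 759 CPM after KCl in inputs, and to 471 to 562 CPM and 692 to 875 CPM in pulldowns. Gfap went the other way in pulldowns (-1.31, edgeR FDR 0.0346), where Aldoc (1.09), Gja1 (0.70) and Aldh1l1 (0.57) rose. The summed neuron markers went from 8217 to 8416 CPM at rest to 6311 to 6467 CPM after KCl in inputs. In pulldowns they went from 6483 to 6611 CPM to 4724 to 4775 CPM. Of the single neuron markers, Tubb3 fell in both (-1.02 in inputs and -0.77 in pulldowns). Rbfox3 (-1.61) and Syt1 (-0.44) fell in inputs, where the others lay between -0.27 (Camk2a) and 0.20 (Map2). In pulldowns no other neuron marker passed, with values from -0.41 (Slc17a7) to 0.15 (Camk2a). The part of these shifts in the Arc response was not tested.

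Between neurons with and without knockdown, the depolarized Arc level was lower by 1.68 in inputs (SE 0.308, edgeR FDR 0.00214) and by 1.88 in pulldowns (SE 0.320, edgeR FDR 4.28e-04). These are 3.21-fold and 3.67-fold lower levels. Genes called lower made up 2.12% in inputs and 10.9% in pulldowns, where a further 7.96% were higher. Without replicate 1 the FDR in inputs was 0.0558 at -1.75, and without replicate 2 it was 0.153 at -1.64. Without replicate 2 the pulldown value was -1.28 (edgeR FDR 0.143). At rest the differences were -0.16 (95% interval -0.80 to 0.48, edgeR FDR 0.852) in inputs and 0.07 (95% interval -0.66 to 0.81, edgeR FDR 0.933) in pulldowns. Slc17a7, a marker of glutamatergic neurons and 1 of the 8 neuron markers, was lower in knockdown libraries both at rest (-2.33 in inputs and -2.79 in pulldowns) and after KCl (-2.23 and -2.77). At rest the summed neuron markers were not lower in knockdown inputs, at 8217 to 8416 CPM against 7476 to 8239 CPM. In resting pulldowns they were at 6483 to 6611 CPM against 6654 to 7263 CPM. After KCl the summed neuron markers were at 6311 to 6467 CPM in knockdown inputs against 5737 to 7304 CPM in TurboID-PSD95 inputs without knockdown. In pulldowns the summed neuron markers were lower without overlap, at 4724 to 4775 CPM against 5391 to 5765 CPM. The 7 astrocyte markers were higher without overlap, at 717 to 759 CPM against 314 to 487 CPM in inputs and at 692 to 875 CPM against 407 to 617 CPM in pulldowns. Microglia markers were also higher, at 9.93 to 24.9 CPM against 0 to 5.74 CPM over both, and oligodendrocyte markers lower, at 57.6 to 59.1 CPM against 78.6 to 140 CPM in inputs and at 25.4 to 31.3 CPM against 51.3 to 118 CPM in pulldowns. The 5 endothelial markers were higher in inputs, at 77.6 to 96.4 CPM against 5.54 to 65.9 CPM, and overlapped in pulldowns, at 48.5 to 52.2 CPM against 7.30 to 85.9 CPM. The part of such shifts in the Arc values was not tested.

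The difference of the KCl response itself, knockdown minus no knockdown, was -1.52 in inputs (SE 0.428, 95% interval -2.40 to -0.64, edgeR FDR 1.00, unadjusted p = 0.00163). In pulldowns it was -1.95 (SE 0.474, 95% interval -2.93 to -0.97, edgeR FDR 0.0718, unadjusted p = 3.92e-04), where 0.432% of 13180 genes were called lower. Neither passed the FDR of 0.05, and in inputs 0 of 13180 genes were called lower and 1 higher. The pulldown difference passed with edgeR's likelihood ratio test (-1.95, edgeR FDR 0.0157), with DESeq2 (-1.92, adjusted p = 0.0189), without the filter on low counts (-1.98, edgeR FDR 0.00529) and with a length trend removed (-1.94, edgeR FDR 0.0350). In 8 of 12 alternatives, leaving out replicates included, the pulldown difference kept its direction and did not pass. The call thus depends on the method, while the size of the difference hardly did. Without 1 replicate the difference ran from -2.52 to -1.64 in pulldowns and from -1.71 to -1.21 in inputs.

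As with Arc, no other early gene passed the test for a smaller KCl response under knockdown in inputs or pulldowns. In inputs 0 of 13180 genes passed it and in pulldowns 0.432% did, so this says little about early genes. Of 36, 28 rose with KCl in knockdown inputs and 1 fell, Inhba (-1.23, edgeR FDR 0.00122), where 8.91% of all genes were called higher and 10.3% lower. In knockdown pulldowns 26 rose and 2 fell, Inhba (-1.99, edgeR FDR 3.71e-06) and Bdnf (-0.80, edgeR FDR 0.0122), where 10.2% of all genes were called higher and 12% lower. Knockdown minus no knockdown, their median difference in response was 0.06 in inputs and -0.34 in pulldowns, and 36 of 36 lay above Arc in both. Over all 13180 genes Arc had rank 276 from the lowest in inputs and 480 in pulldowns. Egr3 (-1.15) and Egr4 (-0.94) were nearest to Arc in inputs and Btg2 (-1.79) and Egr2 (-1.72) in pulldowns, none of which passed. Btg2 and Egr2 differed from Arc in pulldowns by less than its SE of 0.474. Fos was at 0.46 and -0.56, Egr1 at -0.47 and -1.30, Npas4 at -0.57 and -0.95, and Nr4a1 at 0.28 and -0.48. Nr4a2 passed the other way, at 2.46 (SE 0.389, edgeR FDR 0.0201) in inputs and 2.45 (SE 0.401, edgeR FDR 0.00218) in pulldowns. In the direct comparison of depolarized neurons, 1 early gene, Egr1 (-1.17), was lower in knockdown inputs and none was higher, where 2.12% of all genes were called lower and 3.17% higher. In pulldowns 7 were lower and 3 higher, where 10.9% of all genes were called lower and 7.96% higher, so the share of early genes called higher was near that of all genes.

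**Figure D3:**
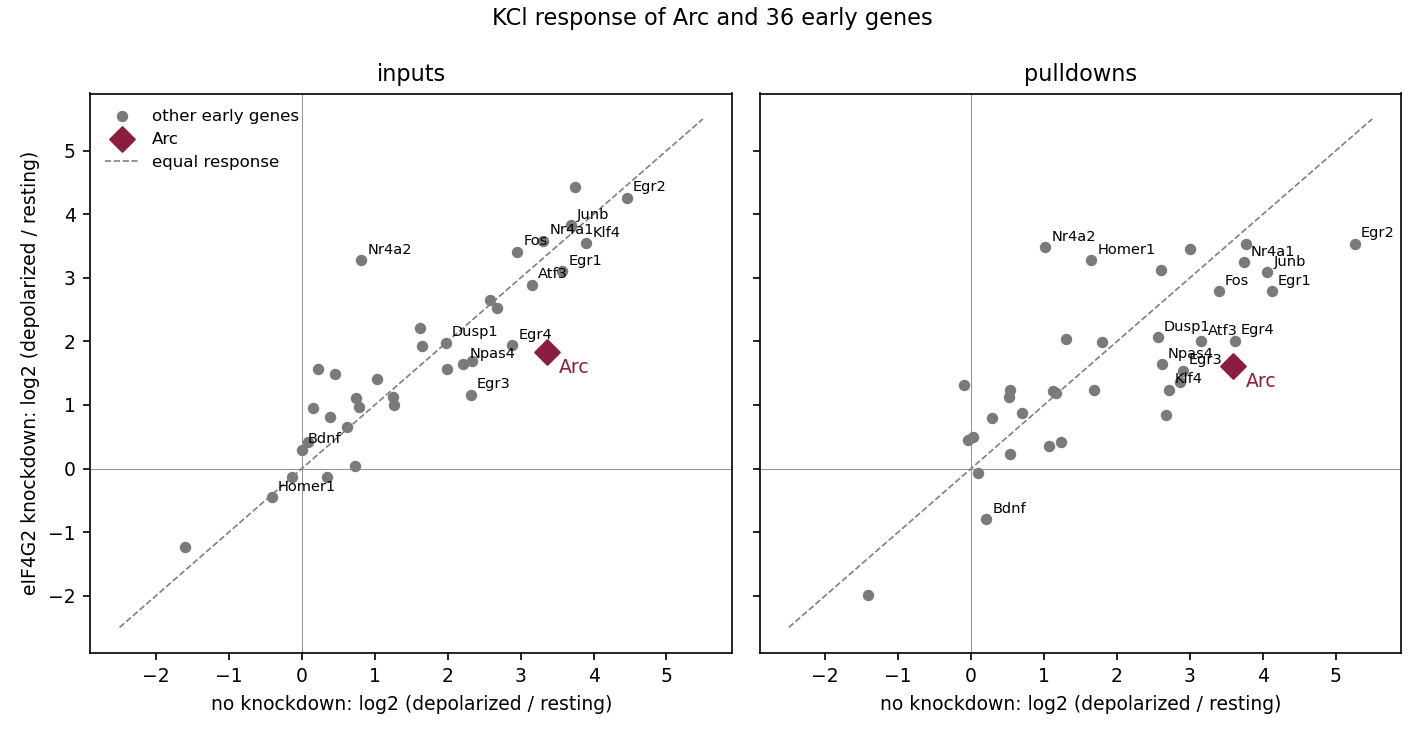
KCl response of Arc (diamond) and 36 early genes (points) as log2 of depolarized over resting, without knockdown on the x axis and with eIF4G2 knockdown on the y axis, in inputs (left) and pulldowns (right); the dashed line marks an equal response. Arc lies at 3.36 and 1.83 in inputs and at 3.59 and 1.62 in pulldowns, farther below the line than any other early gene.

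Pulldown over input within the knockdown experiment was -0.36 (SE 0.341, edgeR FDR 0.410) at rest and -0.57 (SE 0.303, edgeR FDR 0.125) after KCl. The latter was -1.19 (edgeR FDR 0.0107, with 1 library left in that group) without replicate 1 of the depolarized pulldown, since the depolarized replicates stood at -0.16 and -1.40.

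**Figure D4:**
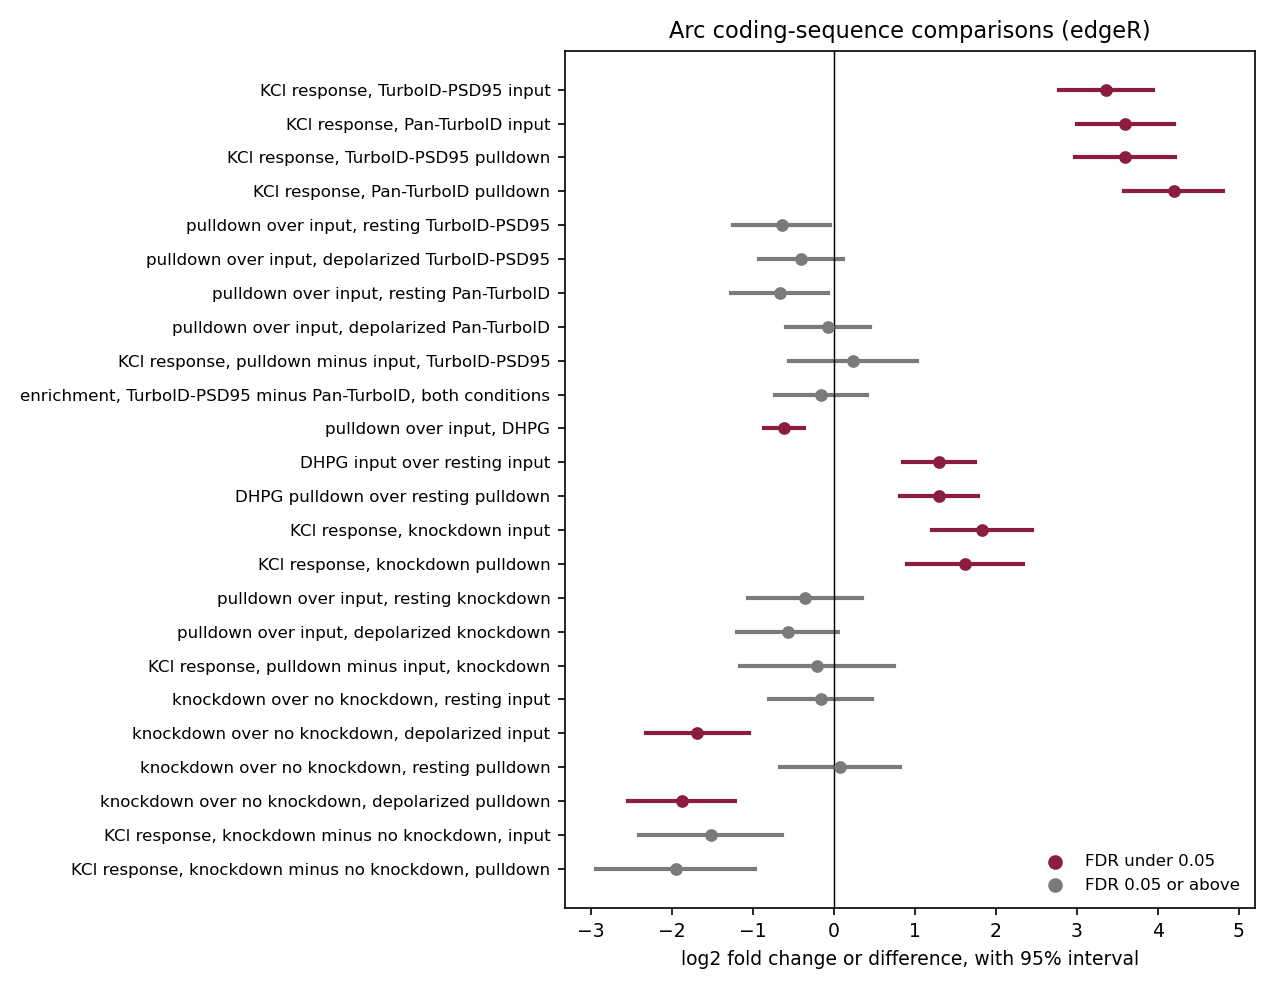
Log2 fold change, or difference of log2 fold changes, of the Arc CDS in each comparison (points) with its 95% interval (lines), dark where the edgeR FDR is under 0.05. The KCl responses lie between 1.62 and 4.20, the DHPG comparisons at 1.30 and the ratios of pulldown to input between -0.67 and -0.07.

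The 5′ UTR of Arc carried a large part of its footprints in the inputs. By library, it held 44.9% to 67.5% of the counts of all 3 regions in inputs of the KCl experiment, 37.2% to 55.0% with knockdown and 32.9% to 36.1% with DHPG. Over all inputs 7335 counts lay in the 5′ UTR and 5912 in the CDS, although the CDS is longer. These sums, and the ranks and densities that follow, rest mainly on the depolarized libraries, where Arc had most counts. Of the counts in both, 55.4% lay in the 5′ UTR, above the share of all but 935 of 10834 genes with at least 500 counts, whose median was 19.5%. In pulldowns the share was 38.6%, against a median gene of 8.51%. Per length, the 5′ UTR of Arc was 7.54 times as dense as its CDS in inputs and 3.81 times in pulldowns, against medians of 1.87 and 0.741. Early transcription factors had median shares of 33.5% and 23.6%, and early effectors 24.9% and 11.8%. Since 5′ ends were counted with no offset, all these 5′ UTR counts include ribosomes on the first codons of the CDS. Their part was not determined.

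**Figure D5:**
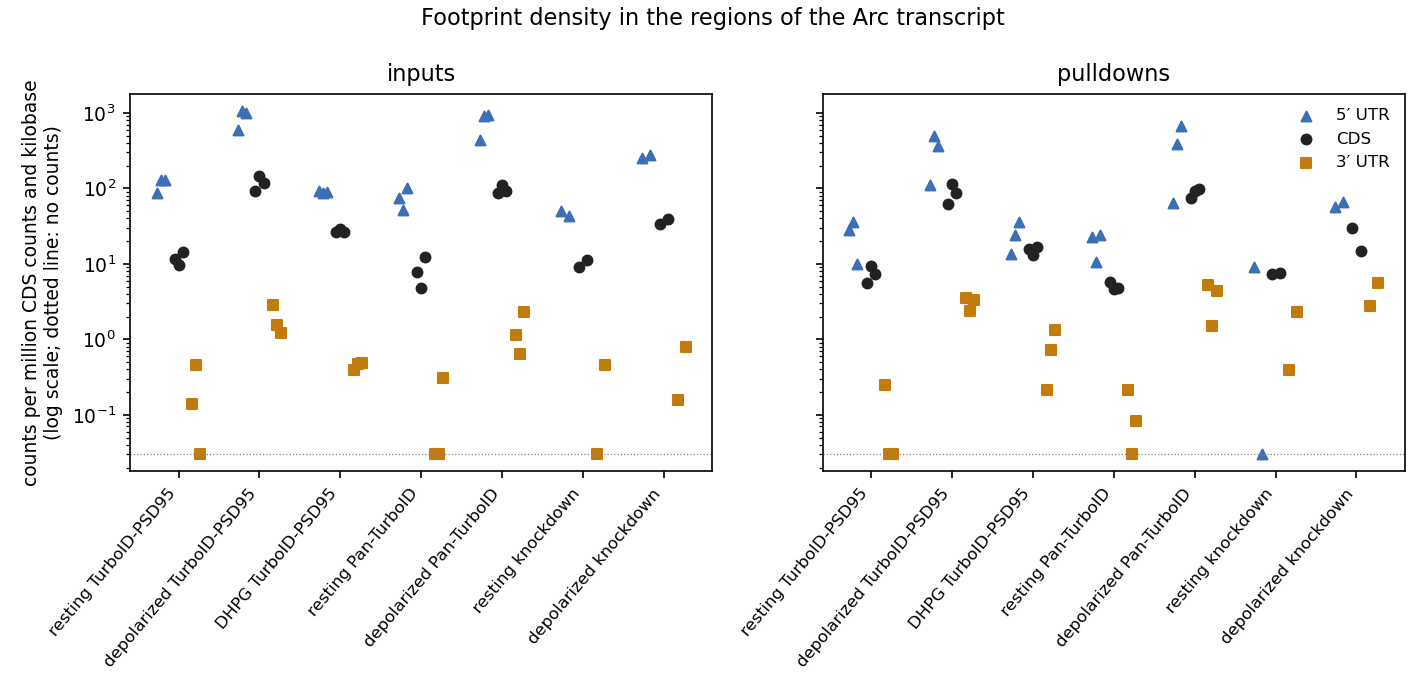
Density of footprints, in CPM per kilobase on a log scale, in the 5′ UTR (triangles), CDS (circles) and 3′ UTR (squares) of Arc, per library, in inputs (left) and pulldowns (right); points on the dotted line had no counts. The 5′ UTR is the densest region in every input, and the 3′ UTR the least dense region in every input.

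The 5′ UTR of Arc rose with KCl as well. In inputs of both ligases the 5′ UTR rose by 3.17 on the log2 scale (SE 0.400, edgeR FDR 4.91e-08) and in pulldowns by 3.97 (SE 0.423, edgeR FDR 3.84e-11). The backgrounds were 0.442% and 1.18% of 10175 genes called higher, and the median over all 5′ UTRs was 0.17 and 0.47. With knockdown the 5′ UTR rose by 2.51 in inputs (SE 0.388, edgeR FDR 0.00124) and by 3.40 in pulldowns (SE 0.599, edgeR FDR 0.0108), with 3.4% and 0.467% of genes called higher. The pulldown value was 8.64 without replicate 1 and 2.75 without replicate 2 of the resting knockdown pulldown, which had no 5′ UTR counts of Arc, and it did not pass in a fit of its own 2 groups (edgeR FDR 0.211). Without any 1 of the 4 libraries, which leaves 1 library in a group, the input value was 2.41 to 2.59 with FDRs between 0.0520 and 0.0724. The share of the 5′ UTR in all counts of Arc was 60.5% ± 4.76 at rest and 54.5% ± 6.06 after KCl in inputs (SD, n = 6), a difference of -6.03 points (two-sided exact permutation p = 0.10, where the smallest p is 0.005) that ran from -9.98 without replicate 3 to -3.97 without replicate 2. In pulldowns it was 35.2% ± 10.4 and 34.2% ± 14.7 (SD, n = 6, two-sided exact permutation p = 0.905).

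The 5′ UTR share was lower in the pulldown than in the input with the same replicate number in 19 of 19 pairs, by 10.7 to 41.6 points. In the KCl experiment the mean difference was -22.8 ± 10.8 points (SD, n = 12 cultures, two-sided exact sign-flip permutation p = 4.88e-04, the smallest these signs can give). That test was also chosen after the data were seen, and these cultures share replicate numbers. The DHPG inputs held 36.1%, 32.9% and 35.8% in the 5′ UTR and the pulldowns 11.9%, 21.6% and 24.6%. In knockdown inputs the share was 47.0% and 37.2% at rest and 55.0% and 52.6% after KCl. In knockdown pulldowns it was 15.7% and 0 at rest, where 0 of 30 counts allows a share of up to 10.0%, and 21.5% and 32.6% after KCl. In the DHPG and knockdown experiments, where same-numbered libraries did not deviate together, every input lay above every pulldown of its condition. The fall is not one of Arc alone, since 5′ UTR counts over all genes made up 15.2% to 27.2% of the counts of inputs in these libraries and 4.44% to 18.4% of those of pulldowns. Scaled to CDS counts, the 5′ UTR of Arc was lower in resting pulldowns by 2.01 (SE 0.398, edgeR FDR 9.17e-05), as were 79.5% of genes. In depolarized pulldowns it was lower by 1.21 (SE 0.371, edgeR FDR 0.00610), as were 64.7% of genes, and without replicate 3 that FDR was 0.104. The medians over all genes were -1.54 and -1.25.

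The 3′ UTR carried few footprints, with 112 counts in all inputs and 248 in all pulldowns. In the KCl experiment each resting input held 0 to 4 of them and each resting pulldown 0 to 3. The 3′ UTR rose with KCl by 3.51 in inputs (SE 0.847, edgeR FDR 0.00893) and by 4.84 in pulldowns (SE 0.852, edgeR FDR 1.05e-04), where 0.83% and 1.01% of 2169 genes were called higher. With so few resting counts the size of these changes is poorly fixed. In inputs the call was lost without replicate 1 (2.78, edgeR FDR 0.167) or replicate 3 (4.58, edgeR FDR 0.126). In pulldowns the value was 6.62 (edgeR FDR 0.00112) without replicate 1 and 4.56 (edgeR FDR 0.0409) without replicate 3. Its share of the counts of Arc in inputs was 0.704% ± 0.872 at rest and 0.981% ± 0.601 after KCl (SD, n = 6, two-sided exact permutation p = 0.53). In pulldowns it was 1.29% ± 1.59 and 3.77% ± 2.58 (SD, n = 6, two-sided exact permutation p = 0.105). By the signs of the same-numbered differences the exact p was 0.0312, the smallest these signs can give. Replicate 2 of the knockdown pulldowns stood apart, with 30.0% of 30 counts at rest and 23.3% of 86 counts after KCl in the 3′ UTR. With knockdown the response of the 3′ UTR was 0.78 (SE 1.42, edgeR FDR 0.885) in inputs and 1.72 (SE 1.13, edgeR FDR 0.536) in pulldowns, with 95% intervals of -2.10 to 3.66 and -0.57 to 4.02.

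Over all 38 libraries, the 5 genes whose log2 CPM followed Arc most closely among 13667 were Egr4 (Pearson r 0.935, Spearman rho 0.917), Elmsan1 (0.894 and 0.885), Egr2 (0.891 and 0.848), Ppp1r15a (0.871 and 0.865) and Egr3 (0.867 and 0.875). Egr2, Egr3 and Egr4 are zinc finger transcription factors of early genes, and Ppp1r15a encodes the stress-inducible subunit of the phosphatase that acts on eIF2α. Among other early genes r was 0.843 for Egr1, 0.666 for Fos, 0.644 for Nr4a1, 0.574 for Npas4, 0.163 for Homer1 and 0.045 for Bdnf. The libraries share cultures and conditions, so these correlations are a description. Per kilobase of CDS, mean levels in resting and depolarized TurboID-PSD95 inputs were 11.9 and 120 CPM for Arc, 27.9 and 204 CPM for Egr4, and 6.33 and 135 CPM for Egr2. Egr3 was at 11.0 and 54.3 CPM in those groups and at 47.0 CPM in DHPG inputs.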

How the data were processed

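Arc and the gene lists were chosen with earlier results of these data known. Per the file headers and the methods, the authors aligned reads longer than 20 nt to mm10 with Rsubread and counted footprint 5′ ends (25 to 100 nt) in UCSC gene segments with plastid, with no offset. The use of strand is not given in the sources used here, and no annotated gene overlaps Arc. The deposited counts of each region were summed per transcript, and the longest of each gene was used. The test was edgeR's, version 4.0.16 under R 4.3.3 (quasi-likelihood F test, robust, TMM, filterByExpr, FDR 0.05 over all genes tested). UTR counts were scaled with the CDS library sizes. The 24 libraries of the KCl experiment, the 6 of the DHPG experiment and the 8 with knockdown were fitted apart, and together where compared. Ratios of pulldown to input over both ligases, differences between ligases and tests over cultures were chosen after seeing the data. Alternatives were DESeq2 1.42.0, the likelihood ratio test, RLE or no scaling, no filter, another transcript, a length trend, a replicate or culture block and leaving out replicates. The code was tested on simulated data. The sequences match the genome of the same assembly. Named genes were Arc, fixed members of each list, list members passing with an absolute log2 change of at least 1 in TurboID-PSD95 KCl responses, and the 5 genes most like Arc; further list members are named as examples after their values were seen. Replicate numbers pair input and pulldown of 1 lysate in the KCl experiment (correlation of deviations 0.359 to 0.708 in 12 cultures), while same-numbered libraries there had a median of 0.134. In the DHPG and knockdown experiments this measure showed no pairing of input and pulldown (medians -0.15 and 0.017). The DHPG inputs differed by little more than counting noise, where the measure could hardly show a pairing.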

Additional observations from a re-analysis of the deposited data

How the results depend on the processing

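Of 504 alternative values for 45 results, 473 kept their direction and their side of the threshold, 9 changed sign, 14 lost and 8 gained the call. The replicate block moved no edgeR call of Arc in 41 comparisons. In the block by same-numbered differences, the 3′ UTR share rose by 2.48 points in pulldowns (exact p = 0.0312, the smallest these signs can give). The culture block made the resting ratios of pulldown to input pass (-0.65 and -0.68). The difference of the KCl response with knockdown in pulldowns passed under the likelihood ratio test (-1.95), DESeq2 (-1.92), no filter (-1.98) and the length trend (-1.94). The knockdown 5′ UTR response in pulldowns, 3.46 in a fit of its own 2 groups, lost its call (edgeR FDR 0.211). As a log2 ratio to the CDS count, the 3′ UTR share in inputs changed by -0.51. The cause was not tested. Leaving out 1 replicate at a time gave these ranges on the log2 scale. Pulldown over input ran from -0.97 to -0.42 for resting TurboID-PSD95, from -0.86 to -0.27 for resting Pan-TurboID, from -0.18 to 0.0049 for depolarized Pan-TurboID and from -1.19 to -0.16 for depolarized knockdown, and its difference between ligases from -0.29 to 0.021. The knockdown KCl response in pulldowns ran from 0.99 to 2.02, and pulldown minus input from -0.82 to 0.21. Knockdown over no knockdown ran from -1.75 to -1.64 in depolarized inputs, -0.14 to 0.36 in resting pulldowns and -2.65 to -1.28 in depolarized pulldowns. The 5′ UTR response ran from 2.41 to 2.59 in knockdown inputs and from 2.75 to 8.64 in knockdown pulldowns, and the 3′ UTR response from 2.78 to 4.58 in inputs and 4.56 to 6.62 in pulldowns of both ligases and -0.58 to 4.32 in knockdown inputs. In points, the change of the 5′ UTR share ran from -9.98 to -3.97 in inputs and from -8.45 to 10.7 in pulldowns, and that of the 3′ UTR share in inputs from -0.15 to 0.67. With 18 to 83 Arc counts per resting pulldown, counting error limits the resting ratios.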
